A study of Homo sapiens with 12 samples.

Results

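A set of 6 genes, from the axis that links integrin beta 8 to AKT signalling and the HSP90 chaperone, was followed in lenvatinib-resistant and parental liver cancer cells: ITGB8, its alpha partner ITGAV, the kinases AKT1 and AKT2, and the cytosolic chaperones HSP90AA1 and HSP90AB1. They were taken by name from the deposited expression table of each line, and the axis has been proposed to take part in lenvatinib resistance of these lines. Of the 6 genes, 3 were measured in Hep3B (ITGB8, AKT1 and HSP90AA1) among 8717 named entries, and 5 were measured in Huh7 (ITGB8, ITGAV, AKT2, HSP90AA1 and HSP90AB1) among 7533 genes. ITGB8 and HSP90AA1 were measured in both lines. ITGAV, AKT2 and HSP90AB1 were not analysed here in Hep3B, nor AKT1 in Huh7.

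The groups were lenvatinib-resistant Huh7, parental Huh7, lenvatinib-resistant Hep3B and parental Hep3B, with 3 RNA-seq libraries each. Hep3B and Huh7 are established human hepatocellular carcinoma lines, and lenvatinib is a kinase inhibitor used against this cancer that acts on receptors for VEGF and FGF among others. All cells were grown in DMEM with serum, and DMSO and lenvatinib are named as treatments for every library without a statement of which library received which, so the presence of drug at harvest is unknown. The labels give 1 resistant group per line, and how it was derived, or whether it is clonal, is not stated. Nothing states that replicates came from separate cultures, and p-values here reflect variation among libraries that may be only technical. In bulk RNA, fewer expressing cells and less RNA per cell cannot be told apart.

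Integrins are cell-surface receptors made of an alpha and a beta chain. The beta 8 chain pairs only with alpha v, and this pair binds latent TGF-beta, the stored form of a growth factor that restrains epithelial growth and drives matrix production. AKT kinases are activated by PI3-kinase lipids and phosphorylate proteins of growth, survival and metabolism. HSP90 is an ATP-driven chaperone dimer that keeps many kinases, AKT among them, folded and stable. HSP90AA1 is its heat-inducible cytosolic form and HSP90AB1 its constitutive one.

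Levels are scaled reads, that is reads recovered from the deposited values and multiplied by 1 factor per library. Over listed genes, the recovered reads came to 11480608 to 11800771 per resistant Huh7 library, 12029528 to 14174202 per parental Huh7 library, 6184929 to 6884468 per resistant Hep3B library and 6363935 to 7475184 per parental Hep3B library. A Hep3B entry is 1 RefSeq transcript, whereas a Huh7 entry is a whole gene, and the lines were normalized separately. Fold changes are log2 of scaled reads + 1, resistant over parental, ± SE, from limma with Benjamini-Hochberg adjustment over each whole table and a threshold of 0.05. Of the hepatocyte markers, 6 of 12 were measured in Hep3B and 9 of 12 in Huh7, with summed levels of 195854 to 199801 scaled reads in resistant and 402855 to 408191 in parental Hep3B, and of 575146 to 598479 in resistant and 474872 to 521215 in parental Huh7. All 6 were lower in resistant Hep3B by limma, while 5 were higher and 4 lower in resistant Huh7. Of 8 fibroblast markers, the 4 measured in Hep3B summed to 2224 to 2501 scaled reads in resistant and 616 to 693 in parental cells (2 higher, 2 lower), and the 3 measured in Huh7 to 884 to 888 in resistant and 4161 to 4349.7 in parental cells (0 higher, 3 lower). Endothelial markers summed to at most 82.6 in Hep3B and 255 in Huh7 over 2 and 3 of 6 genes, and cholangiocyte markers to 19288 to 19527 in resistant and 23464 to 24133 in parental Hep3B (4 of 4 genes) and to 9178 to 9354 in resistant and 10123 to 11211 in parental Huh7 (2 of 4). No measured marker was at 0 in every library, and the part of these levels in the results was not tested.

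Promoter windows of the genes whose starts matter for reading the values are printed here from RefSeq (GRCh38.p14), 250 bases before to 50 bases after a transcript start, 5′ to 3′ on the gene's strand. ITGB8 has 1 RefSeq transcript and 1 RefSeq start on chromosome 7. That transcript is the Hep3B entry, while the Huh7 value is for the Ensembl gene, whose merged exons cover more bases (15156, against 8751 in the transcript, GENCODE 29). HSP90AA1 on chromosome 14 has 2 starts that lie 52705 bases apart, and the Hep3B entry belongs to the upstream one. HSP90AB1 on chromosome 6 has several starts, of which the one printed lies inside the gene. In the ITGB8 window capitals mark the GC box GGGCGG, here read on the opposite strand as CCGCCC. In the other windows they mark the heat shock element core, searched as TTCNNGAA and as GAANNTTC, each of which reads the same on both strands, and neighbouring matches can share 3 bases.
ITGB8, chr7:20330650-20330949, plus strand: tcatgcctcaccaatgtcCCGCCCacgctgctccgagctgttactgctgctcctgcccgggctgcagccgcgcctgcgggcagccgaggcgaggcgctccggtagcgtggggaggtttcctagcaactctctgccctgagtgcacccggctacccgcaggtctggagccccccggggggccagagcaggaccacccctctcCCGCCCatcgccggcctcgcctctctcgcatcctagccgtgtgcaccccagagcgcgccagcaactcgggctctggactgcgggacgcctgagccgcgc
HSP90AA1 upstream start, chr14:102139700-102139999, minus strand: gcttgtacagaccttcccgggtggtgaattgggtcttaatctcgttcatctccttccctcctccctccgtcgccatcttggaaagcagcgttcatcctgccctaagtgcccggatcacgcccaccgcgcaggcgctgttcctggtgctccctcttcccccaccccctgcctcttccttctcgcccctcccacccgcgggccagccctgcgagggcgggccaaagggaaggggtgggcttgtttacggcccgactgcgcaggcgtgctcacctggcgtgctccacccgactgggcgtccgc
HSP90AA1 downstream start, chr14:102086995-102087294, minus strand: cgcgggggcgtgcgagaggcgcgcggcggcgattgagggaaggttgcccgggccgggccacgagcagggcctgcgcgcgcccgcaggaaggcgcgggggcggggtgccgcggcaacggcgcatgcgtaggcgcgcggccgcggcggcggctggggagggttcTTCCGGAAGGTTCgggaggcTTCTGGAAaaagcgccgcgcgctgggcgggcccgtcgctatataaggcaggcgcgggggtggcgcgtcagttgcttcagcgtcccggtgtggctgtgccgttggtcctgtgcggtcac
HSP90AB1 start inside the gene, chr6:44247693-44247992, plus strand: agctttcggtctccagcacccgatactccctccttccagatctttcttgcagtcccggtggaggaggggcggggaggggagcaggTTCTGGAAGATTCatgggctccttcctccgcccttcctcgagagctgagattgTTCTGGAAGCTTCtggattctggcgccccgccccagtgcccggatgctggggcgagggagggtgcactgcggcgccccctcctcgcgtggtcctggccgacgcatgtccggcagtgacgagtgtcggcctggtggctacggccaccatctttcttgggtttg

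The ITGB8 window is 71.7% G and C and holds 2 GC boxes, a motif found on either strand in 45.0% of 35116 RefSeq promoter windows of the same length. The downstream HSP90AA1 window holds 3 matches to the heat shock element core, which begin 88, 83 and 68 bases before the start. The upstream HSP90AA1 window, from which the transcript measured in Hep3B begins, holds 0. The HSP90AB1 window inside the gene holds 4, which begin 165, 160, 112 and 107 bases before that start, and the window of the main HSP90AB1 start at chr6:44246851-44247150 holds 0. At least 1 match occurs in 13.5% of all windows and 2 or more in 1.71%. A match describes letters only, and binding was not measured.

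ITGB8, the beta chain that gives the alpha v pair its hold on latent TGF-beta, was higher in resistant than in parental cells of each line. In Huh7 it was already expressed in the parental cells. Resistant Huh7 libraries held 86.1, 86.1 and 115 scaled reads and parental ones 16.7, 24.4 and 24.1. Every resistant library stood well above every parental one, and the groups did not overlap. The means were 95.9 ± 16.9 and 21.7 ± 4.41 (SD, n = 3 each), a 4.28-fold difference (95% interval 3.08 to 5.93, log2 fold change 2.10 ± 0.23, limma adjusted p = 8.84e-08). Of 7531 genes, 323 had a larger log2 fold change. The Huh7 table holds only genes that had already passed a test of these groups by the authors, so 100% of its genes passed the threshold, 48% higher and 52% lower, and the groups of 98.6% did not overlap. The call of a Huh7 gene therefore says little by itself, and its size and direction are what the table gives.

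In Hep3B, ITGB8 was present in resistant cells and nearly undetected in parental cells. The resistant Hep3B libraries held 94, 50 and 74 ITGB8 reads and the parental ones 2, 0 and 1. After scaling these were 88.3, 50.9 and 77.4 in resistant cells, against 1.84, 0 and 0.991 in parental cells. Every resistant library stood far above every parental one, and the groups did not overlap. The means were 72.2 ± 19.2 and 0.944 ± 0.922 scaled reads (SD, n = 3 each). The log2 fold change was 5.32 ± 0.45 (95% interval 4.38 to 6.27, limma adjusted p = 4.12e-09), and 8 of 8717 entries had a larger one. As a plain ratio, 218 reads against 3 gave a 72.8-fold higher level, with an exact counting interval of 24.6 to 356 that covers counting error only.

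ITGB8 was the 1 gene of the 3 measured in Hep3B that passed the threshold, where 49.5% of all entries passed it, 27.6% higher and 21.9% lower. It entered the test through its resistant libraries alone, since only 1 parental library reached 1 scaled read. The pseudocount sets the size of so low a gene's fold change: with 5 in place of 1 it was 3.68. The groups of 56.3% of Hep3B entries likewise did not overlap. Of the Hep3B calls 55.7% were higher, a share that was 39.2% with median centring, which shifted the median log2 fold change of all entries by -0.16, and 48.2% with quantile normalization, which shifted it by -0.11. ITGB8 kept 5.16 and 4.82 under these scalings.

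**Figure D1:**
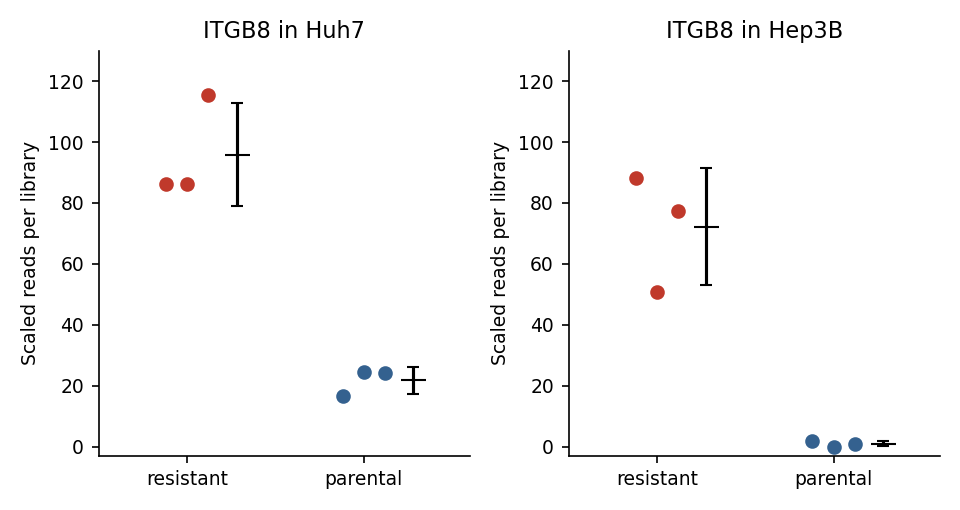
ITGB8 in Huh7 (left) and Hep3B (right), in scaled reads per library on the vertical axis, resistant libraries left of parental ones. Points are libraries, and the bar beside each group is its mean ± SD of 3 libraries. The 3 resistant Huh7 libraries lie between 86.1 and 115 against at most 24.4 in parental cells, and the 3 resistant Hep3B libraries lie between 50.9 and 88.3 against at most 1.84.

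The ITGB8 plot shows the parental Hep3B libraries at or near 0, below the parental Huh7 libraries. On scales that were normalized separately, resistant Huh7 averaged 95.9, resistant Hep3B 72.2, parental Huh7 21.7 and parental Hep3B 0.944 scaled reads. On these scales the resistant groups of the lines overlapped, with the lowest Huh7 library at 86.1 and the highest Hep3B library at 88.3. The parental groups did not. The order of the resistant groups of the lines cannot be read from these levels, since the depth differed too. Recovered reads over listed genes were 11480608 to 11800771 per resistant Huh7 library and 6184929 to 6884468 per resistant Hep3B library. The log2 fold change was smaller in Huh7 than in Hep3B by -3.23 ± 0.51 (Huh7 minus Hep3B, 95% interval -4.26 to -2.19, adjusted p = 2.07e-06 from the limma fits over 3885 shared symbols). This was 1 of 2 differences tested among the 6 genes, and 67.1% of shared symbols passed this test, 30.4% with a higher and 36.7% with a lower change in Huh7. With a pseudocount of 5 the difference was -1.76, still past the threshold.

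ITGAV encodes the alpha v chain that pairs with beta 8. In Huh7 it moved opposite to ITGB8. Resistant Huh7 libraries held 6453, 6125 and 6547 scaled reads and parental ones 9426, 10200 and 11096, so every resistant library was lower. ITGAV fell to 6375 ± 222 in resistant cells, against 10241 ± 836 in parental cells (SD, n = 3 each), a change of -37.6% (log2 fold change -0.68 ± 0.06, 95% interval -0.80 to -0.57, limma adjusted p = 1.80e-09). Even so, ITGAV RNA stayed far more abundant than ITGB8 RNA, and the protein chains were not measured. Per kilobase of transcript, ITGAV had 907 ± 31.5 and ITGB8 10.95 ± 1.93 scaled reads in resistant Huh7, and 1457 ± 119 and 2.48 ± 0.504 in parental Huh7. The ratio of ITGAV to ITGB8 per kilobase was 93.3, 88.6 and 70.6 in the resistant libraries, against 705, 520 and 572 in the parental ones.

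Alpha v also pairs with beta 1, beta 3, beta 5 and beta 6 chains, and none of those measured passed the threshold as higher in either line. In Hep3B, 3 of 4 were measured, of which 0 were higher and 1 was lower by limma. ITGB3, the beta 3 chain, fell to 27.7 ± 0.522 in resistant Hep3B, against 111 ± 11.6 scaled reads in parental Hep3B (-1.96 ± 0.20). ITGB5 had 3900 ± 195 in resistant and 3861 ± 103 in parental Hep3B (0.01 ± 0.05, adjusted p = 0.843 by limma). The measured ITGB1 transcript, 1 of 3 in RefSeq, was at 7.87 ± 4.10 in resistant and 3.61 ± 1.38 scaled reads in parental Hep3B (0.88 ± 0.57, limma adjusted p = 0.21) and did not pass. In Huh7, 2 were measured and 2 were lower: ITGB5 at 2022 ± 53.7 in resistant and 3130 ± 230 in parental cells (-0.63 ± 0.06), and ITGB1 at 7123 ± 198 in resistant and 10275 ± 662 in parental cells (-0.53 ± 0.05).

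Of 18 genes that store, release or receive TGF-beta, 8 were measured in Hep3B, where 5 were higher, 0 lower and 3 did not pass (median log2 fold change 0.68, against 0.07 over all entries). Over all Hep3B entries 27.6% were higher and 21.9% lower, and over all Huh7 genes 48% and 52%. The counts of this and each later list are to be read beside these shares, and no list was tested as a set. NRROS, a membrane protein that holds latent TGF-beta, rose to 16.1 ± 3.47 in resistant Hep3B, against 5.11 ± 4.01 scaled reads in parental Hep3B (1.76 ± 0.55). It lost its call without resistant replicate 3 (log2 fold change 1.64, limma adjusted p = 0.0505) and without parental replicate 1 (1.07, limma adjusted p = 0.0566). NRROS also lost it under limma without trend or robust (adjusted p = 0.0751). SMAD3, which carries the signal to the nucleus, rose by 0.86 ± 0.18 on the log2 scale, MMP14, a protease that cooperates with alpha v beta 8 in releasing TGF-beta, by 0.72 ± 0.05, and the ligand gene TGFB3 by 0.65 ± 0.21. TGFB1 had 2936 ± 146 in resistant and 2719 ± 149 in parental Hep3B and did not pass.

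In Huh7, 12 of these 18 genes were measured, 4 of them higher and 8 lower (median -0.44, against -0.19 over all genes). All 3 ligands measured were lower, TGFB3 by -1.53 ± 0.22, TGFB1 by -1.49 ± 0.07 and TGFB2 by -0.63 ± 0.09. LTBP1, which tethers latent TGF-beta to the matrix, fell to 205 ± 10.6 in resistant Huh7, against 562 ± 58.8 in parental Huh7 (-1.44 ± 0.10). LTBP4 rose to 48.5 ± 6.05 in resistant Huh7, against 5.33 ± 1.09 in parental Huh7 (2.97 ± 0.31), with SMAD2 (0.92 ± 0.06), SMAD4 (0.72 ± 0.06) and the receptor TGFBR1 (0.57 ± 0.07) also higher. SMAD3, MMP14 and TGFB3 were lower in resistant Huh7 and higher in resistant Hep3B, while ITGB8 was higher in both.

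Inside the cell, integrins signal through adaptors such as talin, kindlin and the ILK complex. Of 19 such genes, 8 were measured in Hep3B, 2 of them higher, 3 lower and 3 not past the threshold (median -0.23, against 0.07 over all entries). FERMT1, a kindlin that switches integrins on, rose in each line. Resistant Huh7 held 399.6, 424 and 534 scaled reads of FERMT1 and parental Huh7 114, 125 and 131. Resistant Hep3B held 68.6, 46.8 and 41.8 and parental Hep3B 1.84, 13.2 and 2.97. The groups did not overlap in either line, as for 98.6% of all Huh7 genes and 56.3% of all Hep3B entries. The log2 fold changes were 1.86 ± 0.12 in Huh7 and 3.27 ± 0.50 in Hep3B. The other call higher in Hep3B was the adaptor BCAR1 (1.17 ± 0.23), while the talin gene TLN2 fell to 507 ± 49.1 in resistant Hep3B, against 1741 ± 144 in parental Hep3B (-1.78 ± 0.08).

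TLN1 (-0.25 ± 0.05) and PARVA (-0.25 ± 0.09) were the other calls lower in Hep3B. TLN1 lost its call under limma without trend or robust (adjusted p = 0.0548). PARVA lost its call without resistant replicate 3 (-0.15, limma adjusted p = 0.162) and without parental replicate 1 (-0.22, limma adjusted p = 0.0905) or 2 (-0.23, limma adjusted p = 0.0535). PARVA also lost it under limma without trend or robust (adjusted p = 0.124). In Huh7, 13 adaptors were measured, 4 higher and 9 lower (median -0.36, against -0.19 over all genes). Besides FERMT1, the ILK partner PARVB (1.56 ± 0.23), the focal adhesion kinase PTK2 (0.46 ± 0.06) and vinculin, VCL (0.29 ± 0.05), were higher. LIMS2 (-1.04 ± 0.18) and LIMS1 (-0.70 ± 0.06), which encode the PINCH partners of ILK, and BCAR1 (-0.58 ± 0.06) were among the lower ones.

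AKT1 encodes the most widely expressed AKT kinase, and its entry in Hep3B is NM_005163, 1 of 7 RefSeq transcripts, with its start 2147 bases downstream of the most upstream of the other AKT1 starts examined. Resistant Hep3B libraries held 18, 12 and 10 reads and parental ones 8, 13 and 9. After scaling these were 16.9, 12.2 and 10.5 in resistant cells, against 7.37, 14.3 and 8.92 in parental cells. The groups overlapped, with parental replicate 2 above resistant replicates 2 and 3. The means were 13.2 ± 3.33 and 10.2 ± 3.61 (SD, n = 3 each), and the log2 fold change of 0.37 ± 0.40 did not pass (95% interval -0.48 to 1.21, limma adjusted p = 0.482). The 40 reads against 30 give a ratio of 1.34 with a counting interval of 0.811 to 2.22, which covers counting error only. Both this and the limma interval include a fall as well as a rise. The reads of the other AKT1 transcripts are not in this value.

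AKT2, the isoform tied to the response to insulin in liver, fell in Huh7. Resistant Huh7 libraries held 1852, 1810 and 1743 scaled reads and parental ones 3359, 3138 and 2725. Every resistant library was lower, and the parental libraries spread more. The means were 1801 ± 54.9 in resistant and 3074 ± 321 in parental Huh7 (SD, n = 3 each), a change of -41.2% (log2 fold change -0.77 ± 0.07, 95% interval -0.90 to -0.63, limma adjusted p = 4.52e-09). AKT2 lies on chromosome 19, whose listed genes were mostly lower in resistant Huh7, as given with the neighbouring genes further on.

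**Figure D2:**
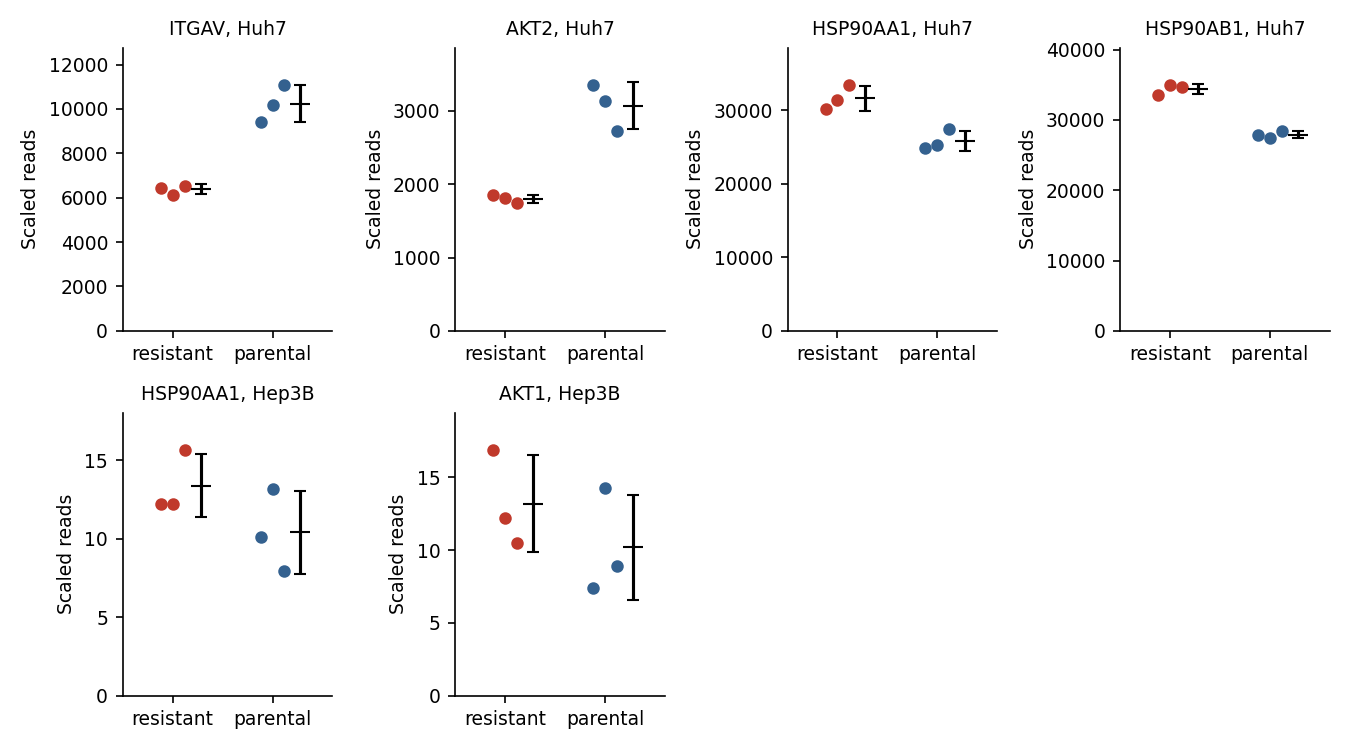
The other genes of the axis, in scaled reads per library on vertical axes that start at 0, resistant libraries left of parental ones, with 1 panel per gene and line. Points are libraries and the bar beside each group is its mean ± SD of 3 libraries. In Huh7, ITGAV and AKT2 lie lower and HSP90AA1 and HSP90AB1 higher in all 3 resistant libraries, while the groups of HSP90AA1 and AKT1 overlap in Hep3B at 7.37 to 16.9 scaled reads.

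Genes that activate AKT did not move one way. Of 16, 7 were measured in each line. In Hep3B 4 were higher, 1 lower and 2 did not pass (median 0.20, against 0.07 over all entries), and in Huh7 3 were higher and 4 lower (median -0.21, against -0.19). PIK3CD, the delta catalytic chain of PI3-kinase, best known from leukocytes, was lower in resistant Huh7 and higher in resistant Hep3B. In Huh7 it stood at 220.02, 207 and 229.7 scaled reads in resistant and 361, 393 and 322 in parental libraries (-0.71 ± 0.10). Resistant Hep3B held 578, 596 and 499 and parental Hep3B 43.3, 40.6 and 41.6, a log2 fold change of 3.70 ± 0.13. The groups did not overlap in either line, as for 98.6% of all Huh7 genes and 56.3% of all Hep3B entries. The change in Huh7 minus that in Hep3B was -4.41 ± 0.17 (adjusted p = 1.37e-23 from the limma fits). The Hep3B entry is 1 of 7 PIK3CD transcripts. Of the leukocyte markers, 2 of 6 were measured in each line. They summed to 5280.0 to 5460.2 scaled reads in resistant and 6456 to 6674 in parental Huh7, and to 108 to 121 in resistant and 438 to 520.1 in parental Hep3B. LYZ made up most of each sum and was lower in both lines (-0.30 ± 0.05 in Huh7 and -2.22 ± 0.12 in Hep3B), while PTPRC in Huh7 (1.07 ± 0.30) and LAPTM5 in Hep3B (2.20 ± 0.70) were higher. Their part in the PIK3CD result was not tested.

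PIK3CA, the alpha catalytic chain, was higher in both lines, with log2 fold changes of 0.27 ± 0.08 in Huh7 and 0.41 ± 0.07 in Hep3B. The insulin receptor substrate IRS2 rose by 1.36 ± 0.06 in Hep3B, and the docking protein GAB1 by 0.96 ± 0.07 in Huh7. MTOR, a kinase that completes AKT activation, was lower in both lines (-0.21 ± 0.06 in Huh7 and -0.26 ± 0.06 in Hep3B), and its partner RICTOR was higher in Huh7 (0.26 ± 0.07). PIK3R1 (-0.23 ± 0.07) and IRS1 (-0.23 ± 0.06) fell in Huh7, and PIK3R1 lost its call under DESeq2 (-0.15, adjusted p = 0.0645).

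Genes that brake AKT numbered 11, with 5 measured in each line. In Hep3B only INPPL1, a lipid phosphatase, passed (0.33 ± 0.07), a call lost with median centring (0.17, limma adjusted p = 0.0665). In Huh7 2 were higher and 3 lower (median -0.40, against -0.19 over all genes). PHLPP1, a phosphatase that acts on AKT itself, was higher, at 896 ± 31.7 in resistant and 499 ± 11.2 in parental Huh7 (0.84 ± 0.07). INPP5D, a lipid phosphatase known from blood cells, had 0 reads in each resistant Huh7 library, against 54.8, 45.8 and 66.4 scaled reads in the parental ones. Against a floor of 3 reads over the resistant group it was at least 54.2-fold lower, and the median of the 5 brakes was -0.40 with INPP5D at that bound too. TRIB3, a pseudokinase that binds AKT (-0.50 ± 0.06), and INPPL1 (-0.40 ± 0.06) were also lower.

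Of 16 AKT substrates and downstream kinases, 7 were measured in Hep3B, 2 higher, 1 lower and 4 not past the threshold (median 0.02, against 0.07 over all entries). The translation repressor EIF4EBP1 was higher (0.47 ± 0.07), as was the glycogen synthase kinase GSK3A (0.22 ± 0.05). The GSK3A call was lost with median centring (0.06) and was absent from the authors' own calls (0.16). RHEB, the GTPase that turns on mTOR, was lower (-0.27 ± 0.07), a call lost under limma without trend or robust (adjusted p = 0.0542). In Huh7 11 were measured, 4 higher and 7 lower (median -0.56, against -0.19 over all genes). FOXO4 fell to 131 ± 6.47 in resistant Huh7, against 407 ± 41.6 in parental Huh7 (-1.63 ± 0.11), with the cell death gene BAD (-1.05 ± 0.19) and GSK3A (-0.95 ± 0.08) lower as well, while FOXO3 (0.66 ± 0.06), the cell cycle inhibitor CDKN1A (0.66 ± 0.10) and TSC1 (0.46 ± 0.06) were higher.

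FOXO factors are kept out of the nucleus by AKT, and 11 of 17 genes known as their targets were measured in each line. In Hep3B 5 were higher, 2 lower and 4 did not pass (median 0.74, against 0.07 over all entries). IGFBP1, a liver-secreted binder of insulin-like growth factors, rose to 160, 138 and 111 scaled reads in resistant Hep3B, against 16.6, 13.2 and 10.9 in parental Hep3B (3.24 ± 0.24). IRS2, also a FOXO target, and CITED2 (1.30 ± 0.34) followed, while SESN3 (-2.73 ± 0.44) and catalase, CAT (-0.72 ± 0.06), were lower. In Huh7 6 were higher and 5 lower (median 0.32, against -0.19 over all genes). The cyclin CCNG2 was higher by 1.38 ± 0.08, SESN1 by 1.25 ± 0.11 and CAT by 0.78 ± 0.06, while the gluconeogenic enzyme PCK1 (-1.60 ± 0.40), GADD45A (-1.34 ± 0.08) and BCL6 (-0.53 ± 0.10) were lower. CCNG2 had nearly the same change in Hep3B, 1.28 ± 0.08.

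Both cytosolic HSP90 genes were higher in resistant Huh7, both by a small margin. Resistant Huh7 libraries held 30139, 31427 and 33512 scaled reads of HSP90AA1 and parental ones 24849, 25335 and 27453. The means were 31693 ± 1702 and 25879 ± 1384 (SD, n = 3 each), a change of 22.5% (95% interval 14.1 to 31.4, log2 fold change 0.29 ± 0.05, limma adjusted p = 2.08e-05). HSP90AB1 stood at 33567, 35019 and 34661 in resistant and 27873, 27463 and 28404 in parental Huh7. The means were 34416 ± 756 and 27913 ± 472 (SD, n = 3 each), a change of 23.3% (16.2 to 30.8, log2 fold change 0.30 ± 0.04, limma adjusted p = 1.63e-06). For each gene the lowest resistant library lay above the highest parental one, but the groups of 98.6% of Huh7 genes did not overlap. Of 7531 genes, 2936 had a larger log2 fold change than HSP90AA1 and 2882 a larger one than HSP90AB1. The genes kept their proportion, with a ratio of HSP90AB1 to HSP90AA1 per kilobase of 1.44 ± 0.0611 in resistant and 1.43 ± 0.058 in parental Huh7.

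Per kilobase of transcript, the order of levels in Huh7 was the same in both groups. HSP90AB1 led with 13017 ± 286 scaled reads in resistant and 10557 ± 178 in parental cells, followed by HSP90AA1 with 9029 ± 485 in resistant and 7373 ± 394 in parental cells. ITGAV came next, then AKT2 with 340 ± 10.4 in resistant and 580.02 ± 60.6 in parental cells, and ITGB8 last at 10.95 in resistant and 2.48 in parental cells. Neighbours in this order differed by more than their spread in each group. In all, ITGB8, HSP90AA1 and HSP90AB1 were higher and ITGAV and AKT2 lower among the 5 genes measured in Huh7.

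In Hep3B the HSP90AA1 entry is NM_001017963, the transcript from the upstream start whose promoter window holds no heat shock element core. Resistant Hep3B libraries held 13, 12 and 15 reads and parental ones 11, 12 and 8. After scaling these were 12.2, 12.2 and 15.7 in resistant cells, against 10.1, 13.2 and 7.92 in parental cells, and the groups overlapped. The means were 13.4 ± 2.01 and 10.4 ± 2.63 (SD, n = 3 each), and the log2 fold change of 0.35 ± 0.39 did not pass (95% interval -0.46 to 1.16, limma adjusted p = 0.482). The whole gene in Huh7 averaged 28786 scaled reads over its libraries, 2422 times the 11.9 of the Hep3B entry, so the entry holds little of what the gene is known to make. The change in Huh7 minus that in Hep3B was -0.06 ± 0.39 (95% interval -0.87 to 0.75, adjusted p = 0.903 from the limma fits). That interval is wide at the low depth of the Hep3B entry and includes differences of either sign.

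HSP90B1, the HSP90 of the endoplasmic reticulum, moved apart in the lines. It was 23674 ± 1231 in resistant and 20734 ± 1547 scaled reads in parental Huh7 (0.19 ± 0.05), a call lost with quantile normalization (0.09, limma adjusted p = 0.0998). It fell to 9450 ± 226 in resistant Hep3B, against 13897 ± 541 in parental Hep3B (-0.56 ± 0.04). TRAP1, the mitochondrial form, was measured in Huh7 only, at 932.5 ± 41.9 in resistant and 1077 ± 47.6 in parental cells (-0.21 ± 0.07), and lost its call under DESeq2 (-0.12, adjusted p = 0.104).

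Cochaperones load clients onto HSP90 and time its cycle, and 17 were listed. Of 11 measured in Hep3B, 1 was higher, 3 lower and 7 did not pass (median -0.15, against 0.07 over all entries). FKBP4, known from steroid receptor complexes, fell to 3144 ± 131 in resistant Hep3B, against 5166 ± 164 in parental Hep3B (-0.72 ± 0.05), with PPID (-0.20 ± 0.07) and HSPA8 (-0.20 ± 0.06) lower. HSPA8 lost its call with quantile normalization (-0.09, limma adjusted p = 0.215) and under limma without trend or robust (adjusted p = 0.0829). PPID lost its call without parental replicate 1 (limma adjusted p = 0.0681). CDC37, which brings kinases to HSP90, was at 3275 ± 13.6 in resistant and 2990 ± 153 in parental Hep3B (0.13 ± 0.05), and this call was lost in 10 settings and turned to -0.03 with median centring. It was lost without any 1 of the resistant libraries and without parental replicate 1 or 2 (log2 fold change 0.09 without parental replicate 2).

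In Huh7 10 cochaperones were measured, 6 higher and 4 lower (median 0.15, against -0.19 over all genes). PPID (0.78 ± 0.07), SUGT1 (0.46 ± 0.07) and the Hsc70 gene HSPA8 (0.28 ± 0.04) were higher. PPP5C (-0.79 ± 0.06), the ubiquitin ligase gene STUB1 (-0.49 ± 0.10) and NUDC (-0.37 ± 0.06) were lower. STIP1, the bridge between HSP70 and HSP90, stood at 4513 ± 100.4 in resistant and 4130 ± 202 in parental Huh7 (0.13 ± 0.05).

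Genes of the heat shock response moved both ways in Huh7. Of 15 heat shock factors and target genes, 10 were measured there, 4 higher and 6 lower, where 48% of all genes were higher (median -0.31, against -0.19 over all genes). HSPA1B fell to 85.2 ± 6.23 in resistant Huh7, against 231 ± 27.0 in parental Huh7 (-1.42 ± 0.14), and HSPA1A to 203 ± 8.88 in resistant, against 437 ± 52.5 in parental Huh7 (-1.10 ± 0.10). These inducible HSP70 genes are nearly identical, so the division of reads between them is uncertain. The small heat shock protein gene HSPB1 (-0.78 ± 0.07), BAG3, DNAJB1 and HSPH1 were lower too, while HSF2 (0.70 ± 0.10), HSPA4L (0.63 ± 0.09) and the mitochondrial chaperonin HSPD1 (0.37 ± 0.05) were higher. In Hep3B 9 were measured, 2 higher, 2 lower and 5 not past the threshold (median -0.02, against 0.07 over all entries). There HSPA1B (0.83 ± 0.19) and HSPB1 (0.65 ± 0.05) were higher, and HSPA4 (-0.51 ± 0.05) and BAG3 (-0.36 ± 0.07) were lower.

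Kinases known as HSP90 clients numbered 15. In Hep3B 6 were measured, 1 higher, 2 lower and 3 not past the threshold (median -0.09, against 0.07 over all entries), with CDK4 (-0.48 ± 0.06) and EGFR (-0.37 ± 0.07) lower. In Huh7 9 were measured, 4 higher and 5 lower (median -0.55, against -0.19 over all genes). The receptor IGF1R (-1.06 ± 0.07), ARAF (-0.94 ± 0.06) and the receptor ERBB2 (-0.68 ± 0.06) were the lowest there, and BRAF (0.29 ± 0.07) and the receptor MET (0.26 ± 0.05) the highest. EGFR was lower in each line, with -0.60 ± 0.05 in Huh7.

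**Figure D3:**
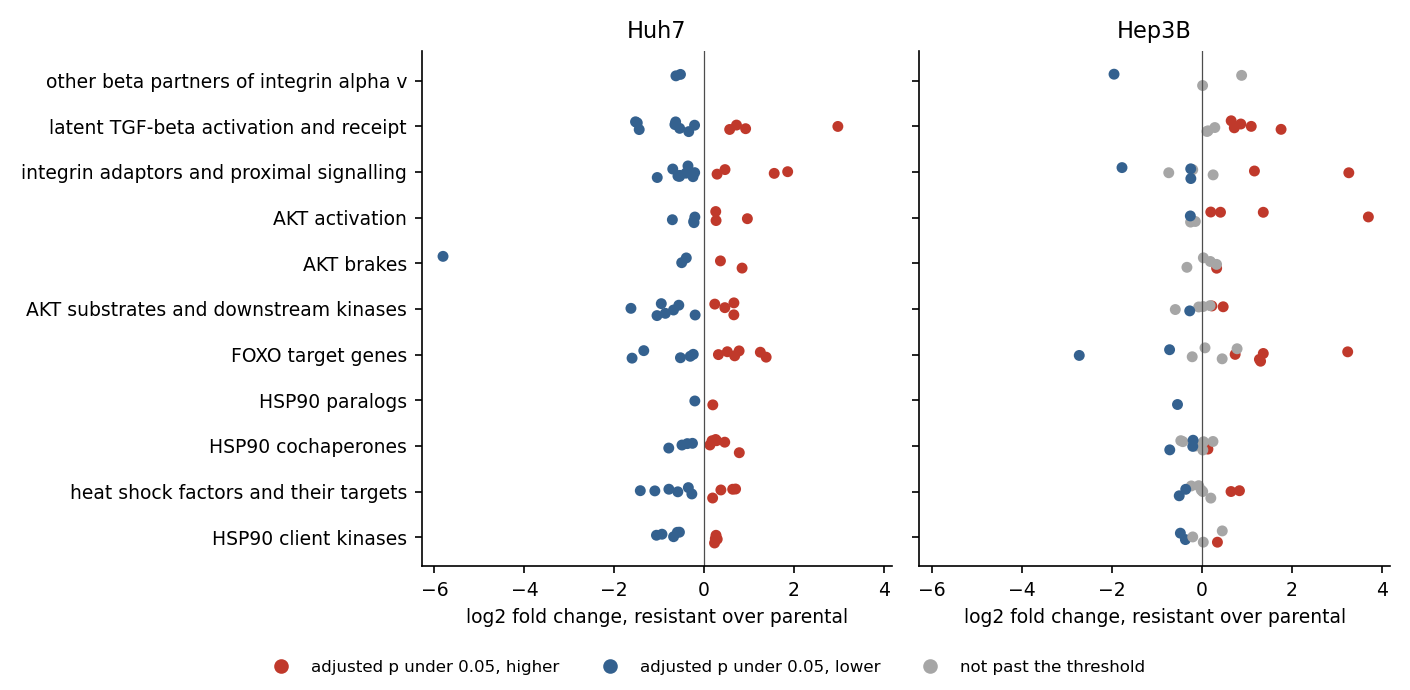
Log2 fold changes, resistant over parental, on the horizontal axis for the measured genes of each list (rows) in Huh7 (left) and Hep3B (right). Each point is 1 gene, red for higher and blue for lower past the limma threshold and grey for the rest, spread vertically for sight only. No list lies wholly on one side in both lines, and the far left Huh7 point is INPP5D, whose position depends on the pseudocount since its resistant libraries hold 0 reads.

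The plot of the lists shows genes on both sides of 0 in most rows. It also shows that in Huh7, where every listed gene had passed a test, no grey points occur. Of the listed genes in Hep3B many are 1 of several transcripts of a gene, so a value there may miss most of that gene's reads.

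The genes beside each gene of the axis on its chromosome were compared next, a comparison chosen after the values were seen. Over all Huh7 genes 48% were higher and 52% lower, and over all Hep3B entries 27.6% and 21.9%. AKT2 did not stand apart from its surroundings in Huh7. Of the 10 nearest listed genes on each side, 18 of 20 were lower (median -0.66, AKT2 -0.77), and so were 413 of the 495 other listed genes of chromosome 19 (median -0.55), the lowest median of any chromosome in that line. ITGAV went against its surroundings on chromosome 2, where 15 of 20 neighbours and 313 of 446 other genes were higher (medians 0.30 and 0.31, ITGAV -0.68). ITGB8 on chromosome 7 had mixed surroundings. In Huh7, 14 of 20 neighbours were lower (median -0.28), and the other listed genes of the chromosome were evenly divided, 173 higher and 175 lower of 348 (median -0.13). In Hep3B, 4 of 20 neighbours passed as higher and 4 as lower (median -0.01). HSP90AB1 at 0.30 in Huh7 had 12 of 20 neighbours higher (median 0.22). Of the other listed genes of chromosome 6, 258 of 416 were higher there (median 0.38), so it moved with its chromosome. HSP90AA1 was at 0.29 in Huh7, where 11 of its 20 neighbours were lower (median -0.22), near the 52% of all Huh7 genes. Of the other listed genes of chromosome 14, 134 of 208 were lower there (median -0.32). In Hep3B 10 of the 20 neighbours of AKT1 passed as higher and 2 as lower (median 0.33), close to the 0.37 of AKT1 itself.

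**Figure D4:**
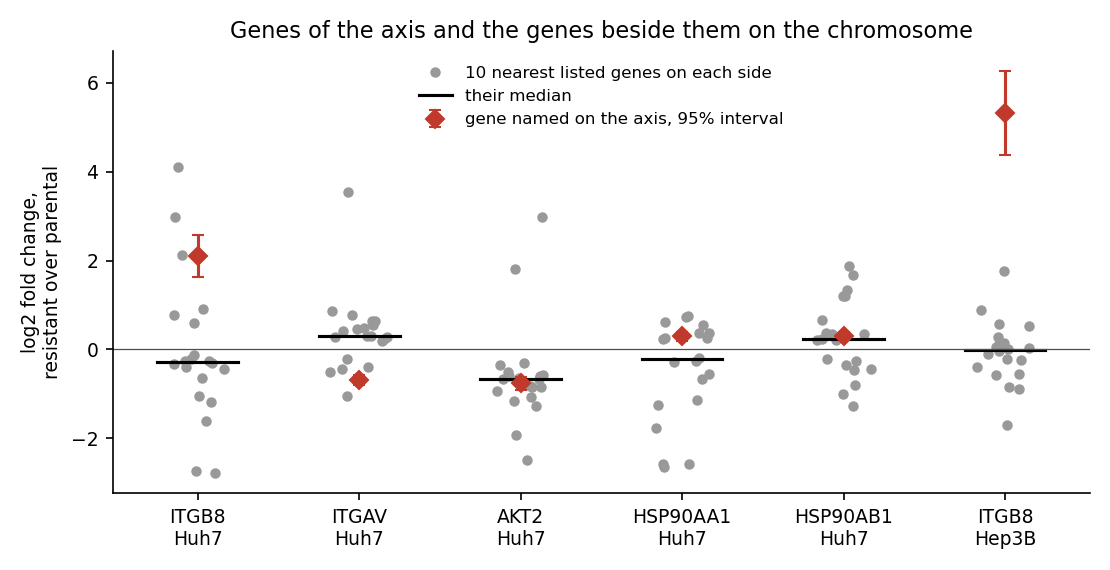
Log2 fold change, resistant over parental, of each gene of the axis (red diamond with 95% interval) and of its 10 nearest listed genes on each side (grey points, black bar at their median), for 5 genes in Huh7 and ITGB8 in Hep3B. AKT2 at -0.77 lies among its neighbours with their median of -0.66, ITGAV at -0.68 lies below its median of 0.30, and ITGB8 at 5.32 in Hep3B lies above all of its neighbours.

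The entries whose library profiles were most like that of ITGB8 were sought in each line, as the smallest Euclidean distance between log2 profiles over the 6 libraries of that line, each centred on its parental mean. In Hep3B, among 7510 candidates with a median distance of 9.22, these were PCSK5 (0.558), WNT10A (0.902), HES2 (1.01), SYT10 (1.19) and DIO3 (1.23). PCSK5, a proprotein convertase, stood at 90.2, 70.2 and 86.8 scaled reads in resistant and 2.76, 0 and 1.98 in parental Hep3B. Its closeness to ITGB8 follows from how it was chosen, and the parental values of both genes lie near 0. In Huh7, among 7203 candidates with a median distance of 3.99, they were the receptor kinase ROS1 (0.293), the peptide hormone receptor GLP2R (0.314), ARAP3 (0.336), the cadherin CDH19 (0.340) and the laminin chain LAMB3 (0.425). ROS1 stood at 226, 226 and 236 scaled reads in resistant and 41.1, 60.1 and 57.8 in parental Huh7. No gene appears among the 5 closest of both lines.

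The division of reads limits some of these values. ITGB8 shares 98 exon bases with an antisense gene, ITGAV 203, AKT1 663, and HSP90AA1 shares 197 with WDR20 on the opposite strand (GENCODE 29), and whether reads were counted by strand is not given in the sources used here. Of HSP90AA and HSP90AB pseudogenes, 4 and 5 are annotated, so reads of the HSP90 genes could be divided with near-identical copies.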

How the data were processed

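RNA-seq was analysed from 12 libraries, 3 in each of 4 groups. GRCh37 is the build in the submitters' processing notes, and the aligner, the counter, the annotation and the strandedness were not given in the sources used here. Each line has its own table. The deposited values are a per-library signal. From the values, this was found to be reads times 1 factor in Huh7. In Hep3B it was 2 times the square root of a product, that of (reads + 0.375) and 1 factor. Inverting these forms returned whole reads for 100% of values (tolerance 0.05). The deposited tables also hold the authors' log2 fold change and adjusted p-value, per the file headers. In Huh7 the largest of these p-values was 0.0499, so that table is a selection, while 4982 Hep3B entries had one of 0.05 or more. Of 8718 Hep3B entries 1 names no gene and was left out. It held at most 0.000171% of a library's reads.

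The main test was limma 3.58.1 (trend and robust, R 4.3.3), two-sided, on log2(scaled reads + 1) within each line, leaving out entries that reached 1 scaled read in fewer than 3 libraries, with Benjamini-Hochberg adjustment over the table and a threshold of 0.05. This passed 8717 entries in Hep3B and 7531 genes in Huh7, and every one of the genes of the axis that was listed. The test was planned for scaled read signals. The files held these in Huh7 and a square-root form in Hep3B, which was inverted first. Lines were compared by subtracting the Hep3B log2 fold change from that of Huh7 and dividing by the combined standard error (Welch-Satterthwaite degrees of freedom), with adjustment over 3885 shared symbols. The fits were tested on simulated data. Alternatives were pseudocounts of 0.5 and 5, other filters, median centring, quantile normalization, limma without trend or robust, edgeR 4.0.16 (TMM) and DESeq2 1.42.0 on the recovered reads, a replicate block, leaving out each library, and the authors' own call.

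Named genes were all genes of the axis, and of each list up to 3 called higher and up to 3 called lower with the largest change in a line, with some others given as context after their values were seen. Some genes of the lists enter the counts and are not reported here by name. The 6 genes and all lists were chosen with earlier results of these data known. RefSeq tables (GRCh38.p14) gave promoters and gene order, matching 7039 of 7531 Huh7 and 8275 of 8717 Hep3B entries, and GENCODE 29 (GRCh38) gave transcript lengths and overlaps. Levels between genes are per kilobase of the longest GENCODE transcript with a RefSeq match. Intervals on reads cover counting error only.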

Additional observations from a re-analysis of the deposited data

Results flagged for a closer look

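Several genes changed differently in the lines by a test of the difference itself (Huh7 log2 fold change minus that of Hep3B, ± SE, adjusted over 3885 symbols from the limma fits, of which 67.1% passed). Among the genes of the axis this was ITGB8, which was higher in 3 of 3 resistant libraries of each line, with -3.23 ± 0.51 (adjusted p = 2.07e-06). FERMT1, also higher in each line, had -1.41 ± 0.51 (adjusted p = 0.0228), a call lost in 7 settings.

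Of the pathway genes reported, 17 passed the threshold in each line in opposite directions. As 100% of Huh7 genes and 49.5% of Hep3B entries passed, any Hep3B call of the other sign is counted here. The share of opposite calls over all shared symbols was not computed, so this count does not set these genes apart. Those lower in resistant Huh7 and higher in resistant Hep3B were PIK3CD (-4.41 ± 0.17), HSPA1B (-2.25 ± 0.24), TGFB3 (-2.18 ± 0.31), BCAR1 (-1.75 ± 0.24), CITED2 (-1.61 ± 0.34), SMAD3 (-1.51 ± 0.19), HSPB1 (-1.43 ± 0.09), MMP14 (-1.26 ± 0.08), GSK3A (-1.17 ± 0.09), INPPL1 (-0.72 ± 0.09) and IRS1 (-0.42 ± 0.08). Those higher in resistant Huh7 and lower in resistant Hep3B were SESN3 (3.41 ± 0.44), CAT (1.498 ± 0.085), PPID (0.99 ± 0.10), FKBP4 (0.97 ± 0.07), HSP90B1 (0.75 ± 0.07) and HSPA8 (0.47 ± 0.07). BCAR1, CITED2, HSPA8, INPPL1, PIK3CD, SESN3, SMAD3 and TGFB3 have several RefSeq transcripts, of which the Hep3B entry is 1, whereas the Huh7 value is for the whole gene, so the values of the lines need not cover the same transcripts.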

How the results depend on the processing

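The counts of calls stayed within 1.5 times the reported ones under all 56 settings tried. Each gene of the axis kept its direction and its side of the threshold within its line. In Huh7 both the counts and the passing of the threshold were largely fixed beforehand. The genes of that line had been selected by the authors' test of the same groups, which is also 1 of the settings. ITGB8 ranged from 3.68 to 6.21 in Hep3B and from 1.92 to 2.22 in Huh7, ITGAV from -0.74 to -0.56 and AKT2 from -0.85 to -0.68, and in Huh7 HSP90AA1 from 0.25 to 0.38 and HSP90AB1 from 0.24 to 0.39. The Hep3B values of AKT1 (0.08 to 0.61) and HSP90AA1 (0.06 to 0.52) never passed. The line difference of ITGB8 ranged from -3.90 to -1.76 and always passed.

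The line difference of HSP90AA1, which never passed, changed sign to 0.0297 with a pseudocount of 5, 0.161 with median centring, 0.214 with quantile normalization, 0.00833 under edgeR and 0.0727 under DESeq2, and ranged from -0.227 to 0.106 over the fits without 1 library, positive at 0.0543 without resistant and 0.106 without parental Hep3B replicate 3. Of other named genes, CDC37 in Hep3B turned to -0.0265 and the line difference of PIK3CA to 0.0723 with median centring. The cause was not tested. Apart from these changes of sign, 34 calls in 13 results of other named genes were lost without one, most often that of CDC37.

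With the replicate number as a block, 4881 entries passed in Hep3B (4317 without it), 7531 in Huh7 and 2721 line differences (2606 without it), and no call of a gene of the axis changed. Deviations of same-numbered libraries correlated only weakly, at 0.06, 0.16 and 0.09 in Hep3B and at 0.01, 0.02 and 0.07 in Huh7. The highest correlations with another number were -0.007, -0.08 and 0.04 in Hep3B and -0.002, 0.05 and -0.008 in Huh7. Every resistant Hep3B library correlated best with its own number, but Huh7 replicate 2 did not.

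The 3 parental ITGB8 reads in Hep3B, and the 30 to 40 reads per group of AKT1 and HSP90AA1 there, limit what those values can show.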
